A study of Mus musculus with 16 samples.

Results

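Genes of glutathione conjugation and of the Nrf2 response, 10 in all, were followed across the liver libraries. They were taken by symbol from the liver table, which lists 15544 gene identifiers, and all 10 members had a row. They were 8 glutathione transferases (Gstp1 and Gstp2 of the pi class, Gstm1, Gstm2 and Gstm3 of the mu class, Gsta1, Gsta2 and Gsta4 of the alpha class), Nqo1 and Gclc. Livers came from 16 female mice aged 27 weeks, 4 per group, and each mouse gave 1 library. Every animal carried floxed Esr1 alleles (Esr1fl/fl), the gene of estrogen receptor alpha. Mutants (Esr1Nkx2-1Cre) also had Cre under the control of Nkx2-1, a gene of forebrain, thyroid and lung, so that some hypothalamic neurons lose the receptor. Mice of both genotypes ate chow or, for 17 weeks, a high-fat diet (HFD), which gave the groups control chow, mutant chow, control HFD and mutant HFD. The numbers that name a library within its group follow the order of the samples and pair nothing. Values are TPM (a length-adjusted share of the transcripts of a library) adjusted between libraries by size factors, and the depth behind them is unknown. They are a share of bulk RNA, so fewer cells of a type and less RNA per cell cannot be told apart.

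Glutathione transferases join the tripeptide glutathione to reactive molecules, from drugs to lipid peroxidation products, so that these can be exported from the cell. The transcription factor Nrf2, encoded by Nfe2l2, is held low by the adaptor Keap1. When electrophiles modify Keap1, Nrf2 accumulates and binds antioxidant response elements near genes such as Nqo1, which encodes a quinone reductase, and Gclc, which encodes the catalytic subunit of the rate-limiting enzyme of glutathione synthesis. In mouse liver many transferases also differ by sex and follow xenobiotic-sensing receptors.

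The members lie in 4 places of the genome (GENCODE M21 on GRCm38, which is mm10). Gstp1 (chromosome 19, 4035407 to 4037985) and Gstp2 (4040285 to 4046023) are neighbours on the minus strand. Gstm3 (chromosome 3, 107963696 to 107969283), Gstm2 (107981702 to 107986453) and Gstm1 (108012255 to 108017973) follow each other on the minus strand. Gclc (chromosome 9, 77754535 to 77794485), Gsta4 (78182774 to 78209349) and Gsta1 (78230656 to 78242684) lie on the plus strand of one stretch, with Gsta2 (78331018 to 78355788) on the minus strand. Nqo1 is alone on chromosome 8 (107388225 to 107403206, minus strand). All are annotated as protein coding, and the values sum the transcripts of a gene.

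Because the files hold an estimate of how reads divide among similar transcripts, the sequence that members share with other genes bears on how well each value is separated. Of the 31-base words in the annotated transcripts of Gsta1, 92.9% also occurred in transcripts of another gene, 80.3% in those of its neighbour Gm3776. The share was 60.7% for Gsta2 and 60.3% for Gstp2, of whose words 54.8% were found in Gstp1. It was 38.5% for Gstp1, 37.7% for Gstm3, 28.8% for Gstm1 and 12.2% for Gstm2. Gsta4, Nqo1 and Gclc shared no such word with any other gene. Values of Gsta1, Gsta2 and Gstp2 are therefore the least certain.

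The RefSeq promoter table on GRCm38.p6 held entries for 8 of the 10 members, all but Gsta4 and Gclc. A stretch of 120 bases is printed for each of 3 pairs, 5′ to 3′ on the strand of the gene, with the longest run that the printed stretches of a pair share in capitals. The pi pair is shown because one gene was abundant and the other nearly silent behind similar upstream sequence. Its windows end 15 bases after a shared TGAGTCAGC, and the last 23 bases of the Gstp1 window lie in an annotated first exon.
Gstp1 (chr19:4037963-4038082, minus strand): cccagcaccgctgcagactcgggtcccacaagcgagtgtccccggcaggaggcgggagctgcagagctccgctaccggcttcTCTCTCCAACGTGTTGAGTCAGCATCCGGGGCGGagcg
Gstp2 (chr19:4042287-4042406, minus strand): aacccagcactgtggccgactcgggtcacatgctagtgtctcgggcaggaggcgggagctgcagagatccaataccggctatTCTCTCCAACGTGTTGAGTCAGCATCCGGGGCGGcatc
The alpha pair is shown for the same reason, and its windows, like those of the mu pair, end just before the annotated exon next to the RefSeq start. The Gsta2 and Gstp2 windows lie inside the annotated span of the gene, which reaches farther upstream.
Gsta1 (chr9:78230536-78230655, plus strand): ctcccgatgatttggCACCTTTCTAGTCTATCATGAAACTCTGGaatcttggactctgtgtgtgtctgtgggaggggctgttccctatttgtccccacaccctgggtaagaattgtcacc
Gsta2 (chr9:78347169-78347288, minus strand): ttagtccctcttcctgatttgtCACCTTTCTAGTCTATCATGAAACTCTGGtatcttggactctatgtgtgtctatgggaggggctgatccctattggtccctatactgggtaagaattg
The mu pair is shown because its levels varied together across the libraries.
Gstm2 (chr3:107986454-107986573, minus strand): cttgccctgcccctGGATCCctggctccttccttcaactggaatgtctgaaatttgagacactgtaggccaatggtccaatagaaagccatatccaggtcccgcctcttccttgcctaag
Gstm3 (chr3:107969284-107969403, minus strand): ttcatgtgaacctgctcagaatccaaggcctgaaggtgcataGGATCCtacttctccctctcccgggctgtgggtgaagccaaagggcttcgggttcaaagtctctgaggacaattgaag

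Aligned over these windows, Gstp1 and Gstp2 matched at 85.6% of 118 aligned bases, with a shared run of 34 bases. Gsta1 and Gsta2 matched at 89.4% of 113, with a run of 29. Gstm2 and Gstm3 matched at 55.0% of 109, and their longest shared run had 6 bases. Over all 250 bases before the start, the pi pair matched at 88.1% of 235 aligned bases, the alpha pair at 77.0% of 239 and the mu pair at 67.8% of 202. TGAGTCAGC, read in the pi pair before it was searched, was found on either strand in 136 of all 32851 promoter entries (0.414%), and among the members only in Gstp1 and Gstp2. It contains TGAGTCA, the letters bound by AP-1 factors, which 5.2% of the entries held. The core of the antioxidant response element is written TGACNNNGC or TGAGNNNGC, and TGAGTCAGC is a case of the second form. On either strand the second form was in 17.6% of all entries and, among the members, in Gstp1 and Gstp2. The first form was in 12.4% of all entries and in no entry of a member. These windows reach 250 bases before the RefSeq start, so elements farther out were not searched.

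Across the table, columns correlated between 0.933 and 0.985 (Spearman, across genes). Hepatocyte markers summed to between 60435 and 102483, against 39.2 to 56.5 for cholangiocyte markers and 7.08 to 37.4 for lymphocyte markers. Of the fat and pancreas markers, 2 of 4 and 2 of 5 are in the table used, with sums of 4.12 to 13.6 and 0.859 to 2.41. Liver Esr1 is no check of the genotype labels, since the Cre acts elsewhere, and it lay between 6.14 and 15.9 in controls and between 6.42 and 22.9 in mutants. Library 2 of mutant chow stood apart: its 19 acute-phase genes summed to 129094, against 11702 to 31606 in the other libraries. It also had the highest sums of Kupffer cell markers (657) and lymphocyte markers (37.4). The library titles carry numbers that fall into separate series, whose meaning the labels do not give. In HFD the lower series holds control libraries 1 to 3 and mutant library 1, and the higher series holds control library 4 and mutant libraries 2 to 4. No series spans both diets, so diet and series cannot be told apart.

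The 10 members ranged over 3 orders of abundance. Gstm1 was highest, with a mean over the 16 libraries of 1225 (range 806 to 1670), which placed it 92nd in the table. Gstp1 averaged 199 (158 to 259), Gsta4 121 (66.6 to 180.01), Gclc 99.0 (62.3 to 140.1), Gstm2 91.6 (34.7 to 159), Gstm3 59.3 (18.6 to 146) and Gsta2 56.9 (11.96 to 121). Nqo1 was low at 10.03 (7.24 to 14.0) and Gsta1 lower at 1.95 (0.151 to 6.54). Gstp2 averaged 0.542, was listed at 0 in 1 library and reached 1 in only 1, so it did not pass the filter on low values (1 or more in at least 4 libraries) and was not tested. Neighbours in this order, such as Gclc with Gstm2 and Gstm3 with Gsta2, overlapped across libraries. Of the other transferases, Mgst1 (2499), Gstp3 (1364), Gsta3 (1202) and Gstz1 (897) were at the level of Gstm1 or near it, as the plot of family levels shows.

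**Figure D1:**
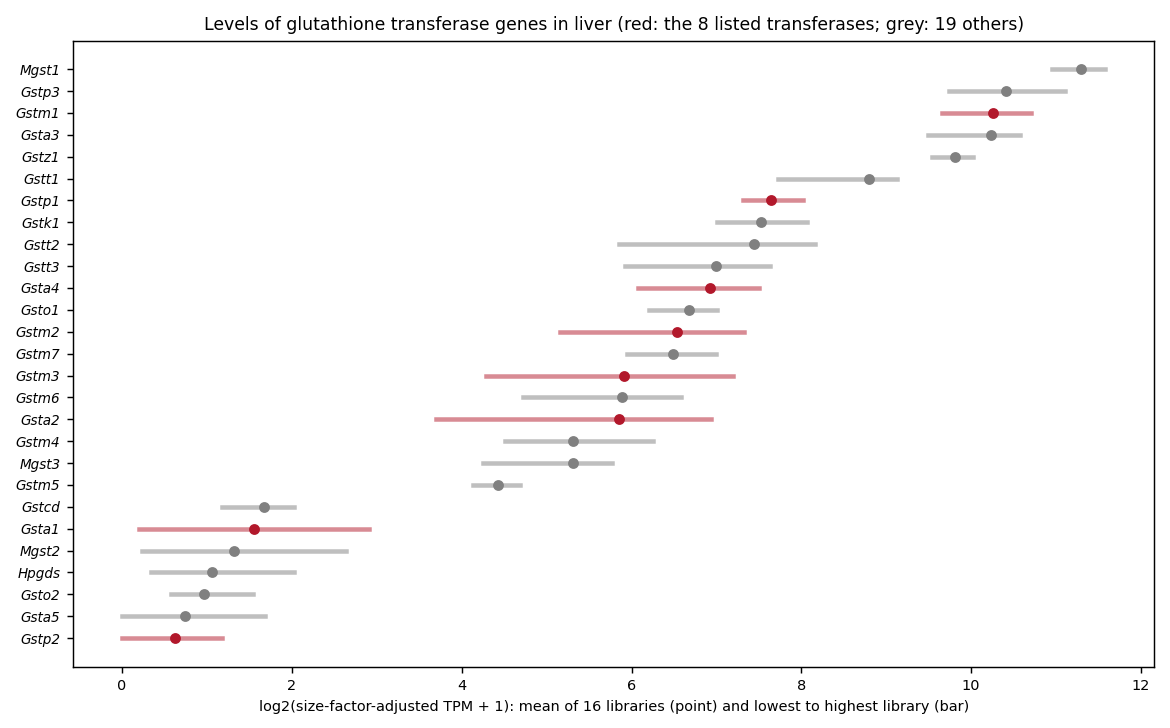
Levels of 27 glutathione transferase genes, as log2 of the size-factor-adjusted TPM + 1, with points at the mean of the 16 libraries and bars from the lowest to the highest library. The 8 members, in red, run from Gstm1 (mean 1225) to Gstp2 (mean 0.542), and Gsta2 and Gstm3 have the widest bars among them.

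Among the pi transferases, Gstp1 was tested. Its values were 167, 194, 167 and 180.2 in control chow, and 175, 213, 158 and 189 in mutant chow. They were 248, 243, 254 and 187 in control HFD, and 259, 171, 167 and 209 in mutant HFD. In controls 3 of 4 HFD libraries were above every control chow library, while library 4 was inside the chow range, and the mutant groups overlapped. In controls the HFD mean was 1.31-fold the chow mean (log2 difference 0.38, 95% CI 0.07 to 0.70), with an unadjusted limma p of 0.0203 and an adjusted p of 0.308. In mutants the difference was 0.12 (−0.20 to 0.43, adjusted p = 0.932 by limma).

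Gstp1 followed the title series in HFD. The 4 libraries of the lower series, which hold both genotypes, lay between 243 and 259, and the other 12 libraries lay between 158 and 213. Between the higher and the lower series, with genotype in the fit, Gstp1 differed by −0.46 (−0.72 to −0.20) on the log2 scale, with a limma adjusted p of 0.0142. This comparison was added after the data were seen, and 25.2% of the 12704 tested genes passed it. Gstp1 was the only one of the 9 tested members that did. Within the lower series the mutant library (259) was above the 3 controls (243 to 254), and within the higher series the control library (187) was inside the range of the 3 mutants (167 to 209). The estimate for genotype on HFD, −0.22 (−0.53 to 0.10), was 0.011 with the series as a term. In the 2 chow series Gstp1 differed by 0.0070 (−0.23 to 0.25), and 0% of the tested genes passed.

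The barely expressed Gstp2 lay between 0.0706 and 0.825 in control chow, 0.324 and 0.714 in mutant chow, 0 and 0.947 in control HFD, and 0.0827 and 1.26 in mutant HFD. These ranges overlap throughout.

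The mu transferases Gstm3 and Gstm2 gave the largest differences between diets in controls among the members on the log2(value + 1) scale. Gstm3 was 47.8, 146, 58.1 and 85.7 in control chow, and 27.9, 44.3, 35.5 and 18.6 in control HFD. It was 69.1, 68.5, 53.2 and 111 in mutant chow, and 38.4, 50.5, 49.0 and 45.0 in mutant HFD. In both genotypes every HFD library was below every chow library of that genotype, and control HFD library 4 was the lowest of all. The HFD mean was 0.374 times the chow mean in controls and 0.607 times in mutants. On the log2 scale this was −1.33 (95% CI −1.999 to −0.65) in controls, with an unadjusted limma p of 0.000762 and an adjusted p of 0.172. In mutants it was −0.67 (−1.34 to 0.01), with an adjusted p of 0.723 by limma. Neither passed the threshold of 0.05. These intervals use a spread pooled over all 16 libraries. With only the groups compared in the fit, the interval was −2.12 to −0.53 in controls and −1.13 to −0.20 in mutants. The limma adjusted p there were 0.244 and 0.758. Gstm3 was the only member without overlap in either diet comparison, where 6.36% of tested genes in controls and 3.53% in mutants had none.

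Leaving out control HFD library 4 moved the Gstm3 difference in controls to −1.10 and its limma adjusted p to 0.05001, just above the threshold. With that library left out, 925 of the 12704 tested genes passed for diet in controls, against 0 with all libraries. The control HFD libraries that remain are all of the lower title series. Leaving out control chow library 2, the highest of all, moved it to −1.02 (adjusted p = 0.382). The direction was the same without any of the 8 libraries.

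Gstm2, the neighbour of Gstm3, had 93.9, 159, 65.8 and 123 in control chow and 55.8, 69.2, 64.0 and 34.7 in control HFD. It had 106, 152, 95.9 and 109 in mutant chow and 53.0, 104, 102 and 77.2 in mutant HFD. The groups overlapped in both genotypes: 3 of 4 control HFD libraries and 2 of 4 mutant HFD libraries were below all chow libraries of their genotype. The log2 difference was −0.94 (−1.54 to −0.34) in controls, with an unadjusted limma p of 0.00433 and an adjusted p of 0.224. It was −0.49 (−1.08 to 0.11) in mutants, with an adjusted p of 0.776.

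On HFD, Gstm2 averaged 84.1 ± 24.0 (SD, n = 4) in mutants and 55.9 ± 15.2 in controls, and Gstm3 45.7 ± 5.42 and 31.6 ± 11.0. For each gene 3 of 4 mutant libraries were above all controls. The log2 difference was 0.58 for both (Gstm2 −0.02 to 1.18, limma adjusted p = 0.578, and Gstm3 −0.09 to 1.25, adjusted p = 0.592). Within the lower title series the single mutant library had less Gstm2 (53.0) than the 3 controls (55.8 to 69.2), and within the higher series the 3 mutants (77.2 to 104) had more than the single control (34.7). For Gstm3 the mutant (38.4) lay inside the control range (27.9 to 44.3) in the lower series, and the mutants (45.0 to 50.5) lay above the control (18.6) in the higher. Without control HFD library 4 the estimates were 0.37 for Gstm2 and 0.36 for Gstm3. The diet differences of the 2 genotypes differed by 0.66 (−0.29 to 1.61) for Gstm3 and by 0.46 (−0.39 to 1.31) for Gstm2, both with an adjusted interaction p of 0.895 by limma.

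Gstm1, the most abundant member, was 1195, 1670 (library 2), 1521 and 1459 in control chow and 909, 806, 1213 and 1474 in mutant chow. It was 1151, 1320.2, 1430.1 and 892 in control HFD and 1298, 1068, 1144 and 1050.02 in mutant HFD. On chow 2 of 4 mutants were below all controls, and the other 2 were inside the control range. The log2 difference by genotype on chow was −0.44 (−0.85 to −0.03), with an unadjusted limma p of 0.0376 and an adjusted p of 0.804. Without mutant chow library 2, which had the high acute-phase sum, it was −0.30, with an unadjusted p of 0.132 and an adjusted p of 1.00 by limma. The change in the unadjusted p was not particular to that library. Without mutant chow library 1 (−0.36), or without control chow library 2, 3 or 4, Gstm1 also missed the unadjusted threshold of 0.05. The same held with only the groups compared in the fit. Gstm1 still met it without control chow library 1 or mutant chow library 3 or 4. The estimates without 1 library ran from −0.59 to −0.30. The part of the acute-phase state of mutant chow library 2 in the difference was not tested beyond this. On HFD the genotypes differed by −0.05 (−0.47 to 0.36).

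**Figure D2:**
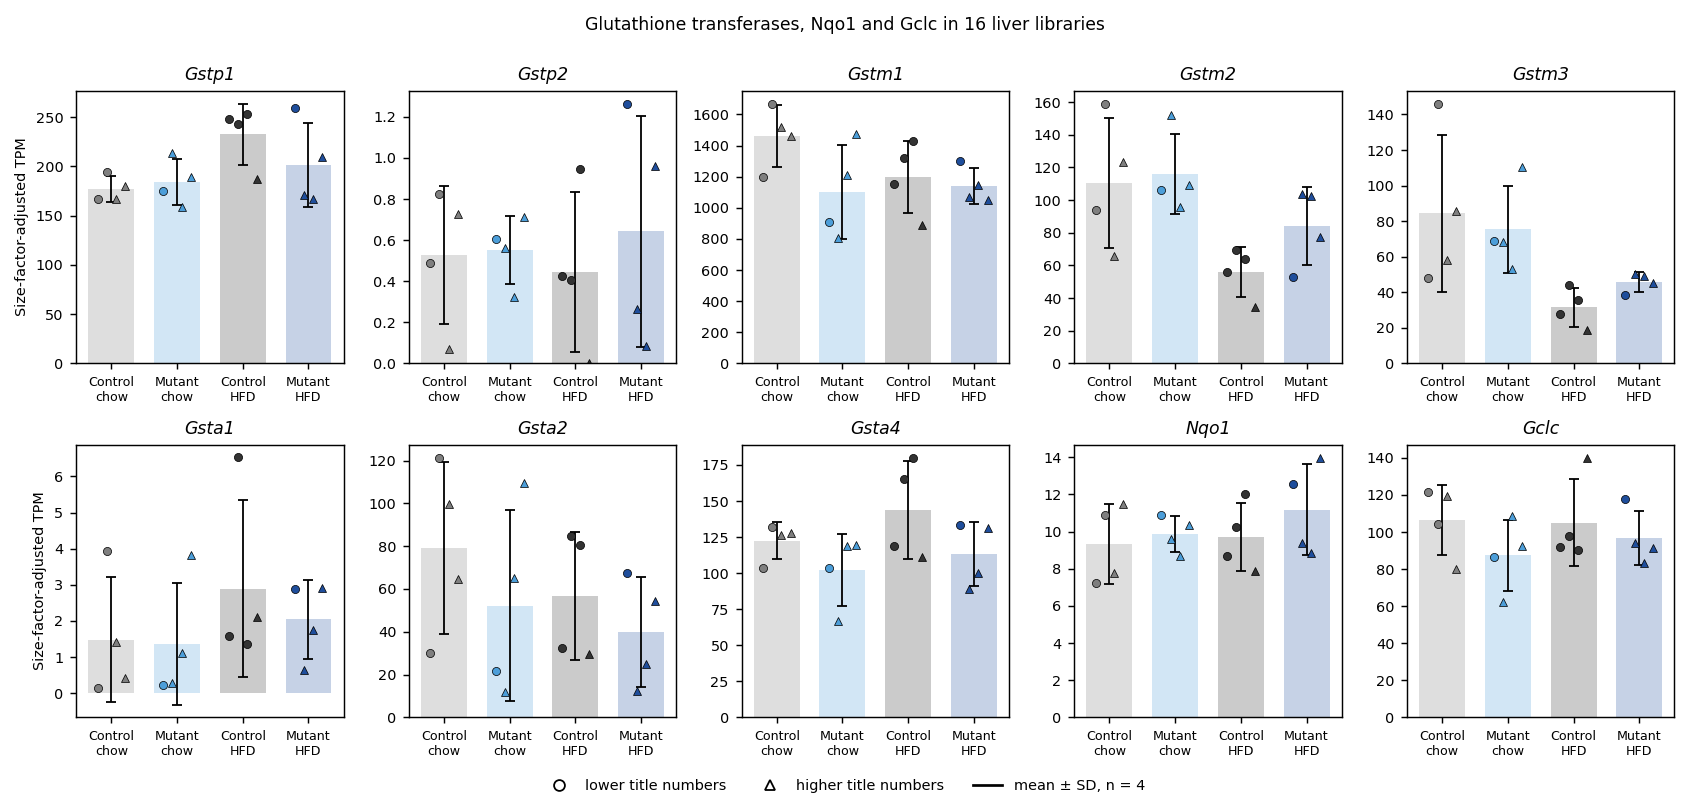
Size-factor-adjusted TPM of the 10 members in each library (circles for the lower and triangles for the higher title numbers of a diet), with bars at the group mean and error bars of 1 SD (n = 4). Gstm3 in HFD lies below chow in both genotypes without overlap, and the 4 HFD circles of Gstp1 (243 to 259) lie above all of its other points.

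Among the alpha transferases, Gsta4, which is known for conjugating the lipid peroxidation product 4-hydroxynonenal, varied least. It averaged 123 ± 12.7 (SD, n = 4) in control chow, 102 ± 24.9 in mutant chow, 144 ± 33.8 in control HFD and 113 ± 22.1 in mutant HFD. Its lowest value, 66.6, was in mutant chow library 2. Mutants were lower than controls by 0.29 on chow (log2 difference −0.29, −0.72 to 0.14) and by 0.33 on HFD (−0.33, −0.77 to 0.10), with limma adjusted p of 0.926 and 0.618. The chow difference was −0.10 without mutant chow library 2.

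Gsta2 spread more within groups than between them. It ranged from 29.9 to 121 in control chow, 11.96 to 109 in mutant chow, 29.6 to 85.0 in control HFD and 12.4 to 67.5 in mutant HFD. The genotype difference was −0.89 (−2.31 to 0.54) on chow and −0.61 (−2.04 to 0.81) on HFD, with limma adjusted p of 0.946 and 0.76. Without mutant chow library 2 the chow estimate was −0.36. The HFD estimate was −0.17 without mutant HFD library 2, −0.021 with the title series as a term and −1.25 with library weights. All 4 intervals of Gsta2 span 0 widely.

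Gsta1, at values where 92.9% of its words belong also to other genes, was 0.151 to 3.94 in control chow, 0.23 to 3.83 in mutant chow, 1.37 to 6.54 in control HFD and 0.637 to 2.92 in mutant HFD. The HFD mean was 1.96-fold the chow mean in controls and 1.496-fold in mutants, with log2 differences of 0.72 (−0.38 to 1.82) and 0.52 (−0.59 to 1.62). The limma adjusted p were 0.567 and 0.903. The estimate in controls was 0.35 without control HFD library 2, 1.13 without control chow library 2 and 1.38 with a pseudocount of 0.1.

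Nqo1, the quinone reductase widely used as a reporter of Nrf2 activity, had close means in the 4 groups. It averaged 9.35 ± 2.15 (SD, n = 4) in control chow, 9.88 ± 0.957 in mutant chow, 9.71 ± 1.84 in control HFD and 11.2 ± 2.47 in mutant HFD. Its 4 log2 differences ran from 0.06 to 0.18, the largest for genotype on HFD (−0.19 to 0.55, limma adjusted p = 0.73). The 4 intervals together reach from −0.31 to 0.55.

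Gclc averaged 107 ± 19.1 in control chow, 87.5 ± 19.3 in mutant chow, 105 ± 23.6 in control HFD and 96.8 ± 14.7 in mutant HFD (SD, n = 4). The largest of its differences was −0.29 (−0.69 to 0.11) by genotype on chow, with an adjusted p of 0.902 by limma. It was −0.14 without mutant chow library 2, where Gclc had its lowest value of 62.3. In control HFD, library 4 (140.1) was above the other 3 (90.2 to 97.9), and on diet in controls the difference was −0.03 (−0.43 to 0.38).

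Counted together, 0 of the 9 tested members passed an adjusted p of 0.05 in any of the 5 comparisons by limma. Over all 12704 tested genes the shares that passed were 0.0236% by genotype on chow, 0.0157% by genotype on HFD, and 0% in both diet comparisons and the interaction. At an unadjusted p under 0.05, the genotype comparisons held 1 member on chow (Gstm1, lower), beside 6.08% of all tested genes, and 0 on HFD, beside 8.6%. The diet comparisons held 3 in controls (Gstm3 and Gstm2 lower, Gstp1 higher), beside 12.9%, and 0 in mutants, beside 6.86%. The interaction held 0, beside 4.21%. Groups did not overlap for 0 of 9 members by genotype on chow and on HFD, beside 3.05% and 2.69% of all tested genes. The median log2 difference of the 9 members between genotypes was −0.08 on chow (all tested genes 0.02) and −0.10 on HFD (0.02). Between diets it was −0.03 in controls (−0.0094) and 0.12 in mutants (−0.011), and the interaction median was 0.19 (−0.012).

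When libraries that lay farther from their fitted group means were given less weight in the same model, the calls changed. Gsta4 (−0.55, adjusted p = 0.0158) and Gstp1 (−0.40, adjusted p = 0.0109) passed for genotype on HFD, and Gstm3 (−1.04, adjusted p = 0.0249) and Gstp1 (0.47, adjusted p = 0.0136) for diet in controls. In that limma fit 30.9% and 17.8% of all tested genes passed. The lowest weights went to control HFD library 4 (0.228) and mutant HFD library 1 (0.329), the single library of its genotype in each HFD title series.

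**Figure D3:**
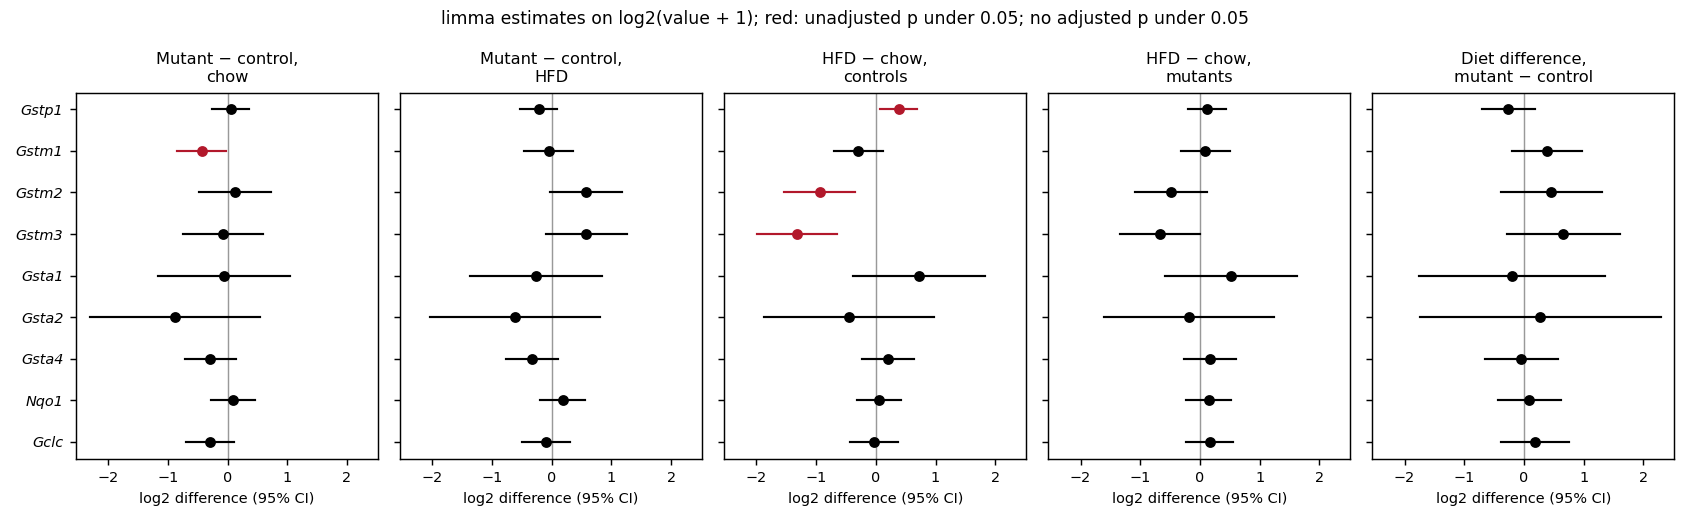
Estimated log2 difference and 95% confidence interval for the 9 tested members in the 4 group comparisons and the genotype by diet interaction. The 4 red estimates have an unadjusted p under 0.05 (Gstm1 by genotype on chow, and Gstp1, Gstm2 and Gstm3 by diet in controls), and no adjusted p is under 0.05.

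Across the 16 libraries the members did not vary as one group. Pearson correlations of log2(value + 1), given as a description over libraries that share groups, diets and title series, were highest between Gstm2 and Gstm3 (0.87), Gstm1 and Gsta2 (0.85) and Gsta2 and Gsta4 (0.81). With group means removed they were 0.73, 0.86 and 0.90. Gstm2 and Gclc ran opposite to each other (−0.63, and −0.77 with group means removed), while Gstm1 and Gstm2, of the same class and locus, were near 0 (0.11 and 0.10). Nqo1 and Gclc, both classical Nrf2 targets, had −0.37 in both.

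Mutant chow library 2 was the lowest of the 16 for Gstm1 (806), Gsta2 (11.96), Gsta4 (66.6) and Gclc (62.3). In the same library Gstm2 (152) and Gstp1 (213) were the highest of mutant chow. Control chow library 2 was the highest of the 16 for Gstm1 (1670), Gstm2 (159), Gstm3 (146) and Gsta2 (121). Control HFD library 4 was the lowest for Gstm2 (34.7) and Gstm3 (18.6) and the highest for Gclc (140.1).

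**Figure D4:**
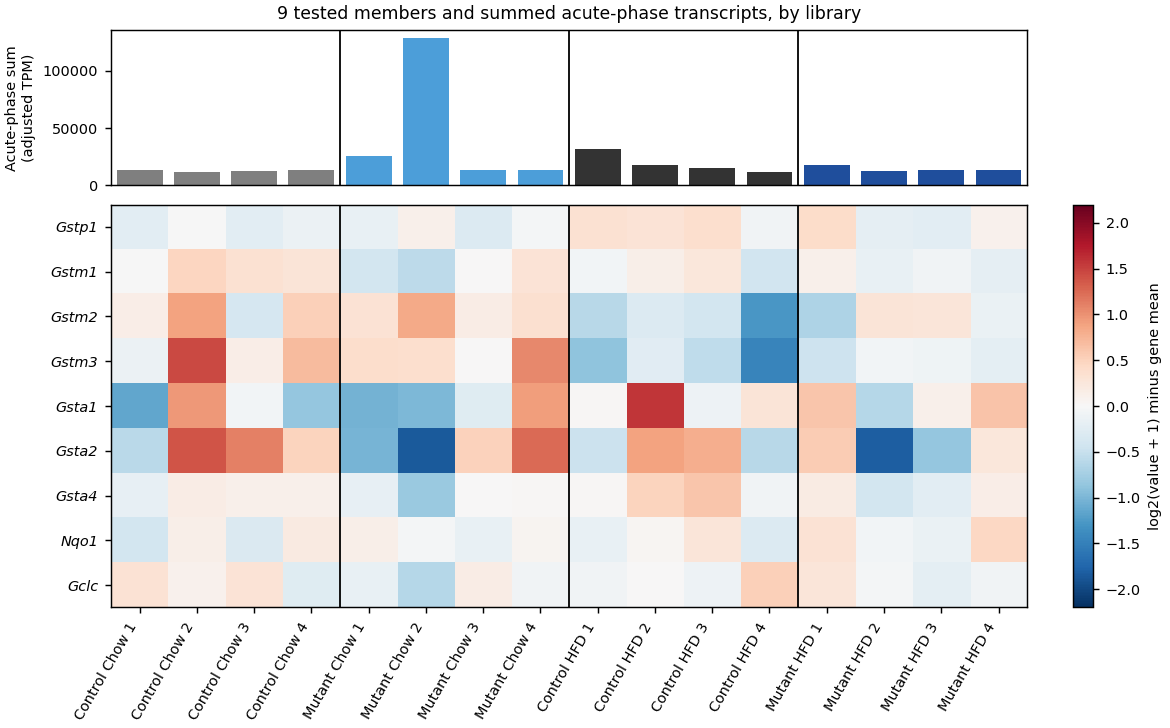
Above, summed size-factor-adjusted TPM of 19 acute-phase genes in each library. Below, log2(value + 1) of the 9 tested members minus the mean of the gene over the 16 libraries, where mutant chow library 2, with the acute-phase sum of 129094, is lowest for Gstm1, Gsta2, Gsta4 and Gclc.

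For each member the 3 tested genes with the highest correlation over the 16 libraries were listed. Gsta4 had the closest, Acy1, an aminoacylase (0.96), followed by Sardh, which encodes sarcosine dehydrogenase (0.91), and Acad10 (0.91). Gsta1 was closest to Gm3776 (0.93), with which it shares 80.3% of its words, then to 1810014B01Rik (0.79) and Zfp74 (0.76). Gstm2 was closest to Pmvk (0.90) and Mvd (0.88), enzymes of the mevalonate pathway of cholesterol synthesis, and to Eci3 (0.87), and Gstm3 to Gstm2 (0.87), Atp6v0a1 (0.85) and Aldh1l1 (0.84). Gstm1 was closest to the proline catabolic enzyme gene Aldh4a1 (0.89), Gsta2 (0.85) and Mif (0.84), and Gsta2 to Aldh7a1 (0.88), Gstm1 (0.85) and Vldlr (0.84). Gstp1 was closest to the aldehyde reductase gene Akr1a1 (0.92), Nedd8 (0.91) and Cblc (0.89). Nqo1 had only looser neighbours, Dolk, Aaas and Rpusd4 (0.76, 0.76 and 0.75), and Gclc had Cyp2b27-ps (0.85), Car8 and Nlrp6 (0.83 each). These lists are a description over 16 libraries and say nothing of shared control.

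The other genes of the pathway were read as lists, and no gene of them passed the adjusted threshold in any comparison by limma. Their values were not examined by title series, which hold the genotypes unequally on HFD. The comparisons share groups, for the lists as for the members, so their estimates are not independent. Control HFD enters diet in controls, genotype on HFD and the interaction. Mutant chow enters genotype on chow, diet in mutants and the interaction. Shares of all tested genes beside the list counts are at an unadjusted p under 0.05 in either direction. Nfe2l2 and Keap1 overlapped across all groups. Nfe2l2 averaged 40.1 ± 6.82 (SD, n = 4) in control chow, 42.1 ± 10.5 in mutant chow, 40.7 ± 5.07 in control HFD and 48.4 ± 5.17 in mutant HFD. Keap1 averaged between 27.4 and 28.3 in every group. Of 12 regulators tested, 1 had an unadjusted p under 0.05 for diet in controls, beside 12.9% of all tested genes. It was Rbx1, which encodes the RING subunit of the ligase that Keap1 recruits (log2 difference 0.43, 0.22 to 0.63, limma adjusted p = 0.164). Rbx1 was lower in mutants than in controls on HFD (−0.33, −0.54 to −0.12, adjusted p = 0.527), and its interaction estimate was −0.48 (−0.77 to −0.19, adjusted p = 0.895).

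Of 28 other Nrf2 targets tested, 0 were higher and 4 lower at an unadjusted p under 0.05 for diet in controls, beside 12.9% of all tested genes in either direction: Pir (−0.32), Gsr, which encodes glutathione reductase (−0.37), Abcc4 (−0.60) and Txnrd1, which encodes thioredoxin reductase (−0.21), with limma adjusted p between 0.233 and 0.349. The median of the list there was −0.01, as for all tested genes. By genotype on HFD 4 were higher and 1 lower, beside 8.6% of all tested genes. Abcc4 (0.73), Htatip2 (0.45) and Txnrd1 (0.22) were among the higher, and Mafg (−0.52) was the lower one. The limma adjusted p of these named genes ran from 0.527 to 0.564. By genotype on chow 2 were higher, beside 6.08% of all tested genes. They were Pgd of the pentose phosphate pathway (0.66, limma adjusted p = 0.59) and Htatip2 (0.37, adjusted p = 0.804). By diet in mutants Cbr3 (0.61) was higher and Pgd (−0.66) lower, beside 6.86% of all tested genes. Gclm, the modifier subunit, named here because it pairs with Gclc, averaged 202 over the 16 libraries (148 to 303) and was in none of these counts.

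Of 19 other transferases tested, 2 were higher and 3 lower at an unadjusted p under 0.05 for diet in controls, beside 12.9% of all tested genes. The higher were Gstk1 (0.43, limma adjusted p = 0.233) and Gstp3 (0.64, adjusted p = 0.278). Gstm4 (−0.67, adjusted p = 0.28) and Gstcd (−0.37, adjusted p = 0.336) were among the lower. Gstp3, which lies beside Gstp1 and Gstp2, averaged 1159 ± 93.8 (SD, n = 4) in control chow and 1856 ± 452 in control HFD, against 1146 ± 223 and 1294 ± 452 in mutants. By genotype on HFD 3 were lower and 1 was higher, beside 8.6% of all tested genes. The lower were Gstk1 (−0.48), Gstp3 (−0.54) and Mgst1 (−0.31), and the higher was Hpgds (0.73), whose level was near 1. Their limma adjusted p ran from 0.525 to 0.573. Gstp3 overlapped there, with 1221 to 2195 in controls and 1011 to 1965 in mutants. By genotype on chow 1 was higher (Mgst2, 1.195) and by diet in mutants 1 was lower (Gsta5, −0.82), both at low levels. Mgst2 averaged 0.619 in control chow and 3.11 in mutant chow, where it ranged from 0.457 to 5.20. Gsta5 averaged 1.02 in mutant chow and 0.0802 in mutant HFD. The shares of all tested genes there were 6.08% and 6.86%.

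Of 20 genes of glutathione synthesis and use, 6 were higher and 1 lower at an unadjusted p under 0.05 for diet in controls, beside 813 higher and 828 lower of the 12704 tested genes, with a median of 0.21 against −0.01 for all tested genes. The members of this count with the smallest p were Anpep (0.48), Gpx1 (0.58), Gpx4 (0.44) and Gsr (−0.37), with limma adjusted p between 0.199 and 0.292. Gpx1, the cytosolic glutathione peroxidase, averaged 2817 ± 352 (SD, n = 4) in control chow and 4234 ± 619 in control HFD. By genotype on HFD 0 were higher and 4 lower, beside 606 higher and 486 lower of the 12704 tested genes. The 4 were Gpx1 (−0.53), Lap3 (−0.27), Glo1 (−0.44) and Anpep (−0.29), with limma adjusted p from 0.527 to 0.573. By genotype on chow 3 were higher (Gpx3 0.78, Chac1 0.89 and Glrx 0.25) and 0 lower, beside 6.08% of all tested genes. By diet in mutants only Chac2 was higher (0.47), beside 6.86%.

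The list of the receptors AhR, CAR and PXR and their targets had 18 tested genes. At an unadjusted p under 0.05, 0 were higher and 3 lower by genotype on chow, beside 6.08% of all tested genes. The lower were Cyp2b13 (−3.12), Cyp3a11 (−2.47) and Aldh1a1 (−0.91), with limma adjusted p from 0.599 to 0.763. By genotype on HFD 2 were higher, Ahr (0.99) and Cyp1a2 (0.85), and 3 lower, with Cyp3a11 (−2.09) and Aldh1a1 (−0.83) among them. The share of all tested genes there was 8.6%. By diet in mutants Cyp1a2 (0.84) was among 2 higher, and Gadd45b (−0.80), Cyp2c55 (−0.56) and Ces2a (−0.60) were the 3 lower. The share of all tested genes in that comparison was 6.86%. For diet in controls 0 were higher and 4 lower, beside 12.9% of all tested genes. The 4 were Cyp2c55 (−1.04), Ces2a (−0.90), Gadd45b (−1.10) and Cyp2b10 (−1.25), the classical CAR target. The limma adjusted p of those 4 ran from 0.158 to 0.241, and Gstm3 in that comparison had 0.172. The acute-phase list had a median of 1.03 by genotype on chow and −0.84 by diet in mutants (all tested genes 0.02 and −0.011). At an unadjusted p under 0.05, 8 of 19 were higher by genotype on chow and 7 of 19 lower by diet in mutants. The shares of all tested genes in these comparisons were 6.08% and 6.86%. The summed acute-phase level in mutant chow was 25163, 129094, 13060 and 13647, against 11941 to 13179 in control chow, and the list was not recounted without single libraries.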

How the data were processed

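Bulk RNA was sequenced from 16 livers, and groups were taken from the genotype and treatment labels. Per the methods and the submitters' processing notes, the authors assigned reads to mm10 transcripts with kallisto in gene mode and compared genes with sleuth. Versions, annotation and filter are not given in the sources used here. What the authors deposited is 1 signal value for each gene and library, read from their form as size-factor-adjusted TPM: column totals ran from 905897 to 1119700 and the values are fractional. Depth is therefore unknown, no counting interval was made, and count models were not used. The number of value columns belonging to no sample was 0. Precision rests on the spread between the 4 mice of each group, pooled for each gene over all 16 libraries. A gene therefore has intervals of the same width in all group comparisons, whatever the spread of the groups compared.

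log2(value + 1) was fitted with limma 3.58.1 (R 4.3.3) as 4 group means with a variance trend, for the 12704 genes at 1 or more in at least 4 libraries. P-values were adjusted by Benjamini-Hochberg over all of them, at a threshold of 0.05, and differences are on that log scale, which understates low genes. The script was tested on simulated data. The members and gene lists were chosen with earlier results of these data known. All 10 members are named, and of each list at most 4 genes per comparison with the smallest unadjusted p under 0.05, plus Nfe2l2, Keap1 and the 3 best-correlated genes of each member. Alternatives were other scalings, filters, a pseudocount of 0.1, only the groups compared, library weights, the title series as a term, and each library left out. The comparison of title series was added after seeing the data. Sequences are from RefSeq and GENCODE M21.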

Additional observations from a re-analysis of the deposited data

Results flagged for a closer look

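A value was looked at again where the highest or lowest of the 4 libraries of a group lay far from the other 3, by a gap past the 95% critical value of Dixon's test. Each member in each group was examined, 40 in all, and chance alone marks about 1 group in 20. In control HFD, library 4 had a Gstp1 value of 187, against 243 to 254 in the other 3 libraries (gap over range 0.834). The same library had a Gclc value of 140.1, against 90.2 to 97.9 (0.846). It is the single control of the higher HFD title series. In control HFD, library 2 had a Gsta1 value of 6.54, against 1.37 to 2.11 (0.856). Gsta1 is low, and 92.9% of the 31-base words of its transcripts also occur in other genes.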

How the results depend on the processing

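The count of members past the threshold stayed at 0 wherever an alternative other than library weights was run. With library weights it was 2 for genotype on HFD and 2 for diet in controls. Not every alternative covered all 5 comparisons. The title series as a term was run only for genotype on chow and on HFD. The fit of only the groups compared was not run for the interaction, and a library was left out only in comparisons that hold it. Of 751 alternative estimates of the members, 691 kept their direction and their side of the threshold, 56 turned direction and 4 kept direction and passed the threshold. Scaling without the 20 most abundant genes shifted the median of all tested genes by −0.11 for diet in controls and by 0.15 for the interaction. It turned Gstp1 for genotype on chow (−0.047), Gstm1 for genotype on HFD (0.043), Nqo1 for diet in controls (−0.057) and Gsta4 in the interaction (0.15). Library weights turned Gstm3 (0.00072) and Gsta1 (0.25) for genotype on chow, Gstm1 (−0.12), Gsta4 (−0.052) and Gclc (−0.041) for diet in mutants, and Gsta2 (−0.90) and Nqo1 (−0.069) in the interaction. The title series as a term turned Gstp1 (0.011) and Gstm1 (0.14) for genotype on HFD. The cause of these turns was not tested.

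Leaving out 1 library at a time turned 18 of the 45 estimates, in the ranges given. For genotype on chow these were Gstp1 (−0.027 to 0.12), Gstm2 (−0.10 to 0.32), Gstm3 (−0.31 to 0.22), Gsta1 (−0.49 to 0.34) and Nqo1 (−0.0088 to 0.19). For genotype on HFD these were Gstm1 (−0.19 to 0.038), Gsta1 (−0.45 to 0.11) and Gclc (−0.20 to 0.041). For diet in controls these were Nqo1 (−0.044 to 0.16) and Gclc (−0.17 to 0.044). For diet in mutants these were Gstp1 (−0.011 to 0.20), Gstm1 (−0.049 to 0.24), Gsta2 (−0.70 to 0.33) and Gsta4 (−0.028 to 0.27). For the interaction these were Gsta1 (−0.61 to 0.22), Gsta2 (−0.25 to 0.78), Gsta4 (−0.24 to 0.073) and Nqo1 (−0.019 to 0.19). No paired analysis was possible because the labels give no replicate numbers. Count models were not run, since the values are no counts. The depth is unknown, so differences in Gstp2 and Gsta1, at about 1 TPM, could not be weighed against counting error.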
